A study of Homo sapiens with 9 samples.

Results

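Expression of 35 genes of cholesterol synthesis, uptake and efflux was measured in HepG2 cells, a human hepatocellular carcinoma line, after knockdown of TRIB3. The genes were taken by symbol from a fixed list of mevalonate and sterol enzymes, sterol regulatory element-binding protein (SREBP) machinery, sterol carriers, esterifying enzymes, liver X receptor (LXR) factors and sterol transporters. The rule itself uses no measured value, but the list was drawn up with earlier results of these data known. Of the 35 genes, 34 had a line in a table of 24204 gene symbols, and INSIG1 was not analysed here. A filter of at least 1 FPKM in at least 3 of 9 libraries left 11265 genes for testing, 33 of them members. ABCG1, which exports cholesterol to high-density lipoprotein, did not reach that filter. FPKM is a fragment count scaled for gene length and for the library's mapped fragments.

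The design compared 3 arms of 3 libraries each. All 9 were lentivirus-infected HepG2 cells grown in high-glucose DMEM with fetal bovine serum, infected for 48 h and then kept in puromycin for 48 h. They differed in the hairpin that the virus carried: a control hairpin (labelled Ctrl_shRNA, here shCtrl), TRIB3 sh1 (here shTRIB3-1) or TRIB3 sh2 (here shTRIB3-2). The study's methods describe glutamine-deprived HepG2 RNA, whereas the labels of these libraries name no glutamine withdrawal, so the medium at harvest is uncertain. The paper's discussion does describe changed expression of repair genes after TRIB3 depletion without glutamine deprivation. No isolation of clones is described, and TRIB3 mRNA was lowered rather than removed. Nothing in the labels says that replicates were separate cultures, so p-values measure the spread between these libraries, which may be technical. TRIB3 encodes a pseudokinase that is induced by nutrient and endoplasmic reticulum stress. The sequences that define the knockdown arms are the 21-base hairpin targets, shown 5′ to 3′ in lower case throughout.
shTRIB3-1: tggatgacaacttagataccg
shTRIB3-2: gccgtgctcttccgccagatg
Both targets lie in the coding sequence of TRIB3 on the plus strand, within a single exon each, at chr20:388072-388092 for shTRIB3-1 and chr20:391473-391493 for shTRIB3-2 (GRCh38). In GENCODE release 44 the shTRIB3-1 target is in all 4 TRIB3 transcripts and the shTRIB3-2 target in 3 of the 4, and neither matched a transcript of another gene exactly.

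TRIB3 was 67.9, 65.8 and 66.6 FPKM in the shCtrl libraries, 34.1, 32.7 and 34.0 FPKM with shTRIB3-1 and 20.6, 20.7 and 20.4 FPKM with shTRIB3-2. Its log2 level fell by 0.99 (SE 0.030, adjusted p = 5.30e-11) with shTRIB3-1 and by 1.70 (SE 0.030, adjusted p = 5.39e-13) with shTRIB3-2. The knockdown was deeper with shTRIB3-2, by a further 0.71 on the log2 scale (adjusted p = 9.54e-09). Libraries held between 34206726 and 36311029 fragments. All 6 hepatocyte markers, ALB among them, were at 1 FPKM or above in every arm, and all 4 fibroblast and all 4 endothelial markers were below 1 FPKM. Of 4 leukocyte markers, PTPRC and CD3E were at or near 0, while CD68 and LYZ were expressed. The summed level of the list, nearly all LYZ, was 1055 to 1176 FPKM in shCtrl, 531 to 559 with shTRIB3-1 and 611 to 649.9 with shTRIB3-2, while CD68 rose with shTRIB3-1 from 31.8 to 37.6 FPKM (0.24, adjusted p = 0.00275). The hepatocyte sum, most of it ALB, was 6358 to 6826 FPKM in shCtrl, 6119 to 6468 with shTRIB3-1 and 8157 to 8345 with shTRIB3-2. With shTRIB3-1, 1 of the 6 hepatocyte markers rose (TTR, 1.08) and 3 fell (TF -0.12, HNF4A -0.23 and SERPINA1 -0.44). ALB (-0.04) and AFP (-0.02) did not pass. With shTRIB3-2, 4 of the 6 rose, TTR by 1.71, while HNF4A (-0.07) and SERPINA1 (-0.04) did not pass. Of all tested genes 32.9% rose and 41.5% fell with shTRIB3-1, and 35.4% rose and 40.5% fell with shTRIB3-2. Whether these shifts have a part in the values below was not tested. In RNA from whole cultures, a change in the share of cells in some state and a change in RNA per cell cannot be told apart.

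Cells make cholesterol from acetyl-CoA in a chain of enzymes that passes through mevalonate, farnesyl diphosphate, squalene and lanosterol. The chain is set by SREBP-2, a transcription factor held in the endoplasmic reticulum by SCAP and the INSIG proteins as long as sterols are plentiful. When sterols fall, SCAP carries SREBP-2 to the Golgi, proteases free its active part, and the genes of synthesis and uptake are transcribed. The LXR factors act on the opposite side. They are switched on by oxysterols and induce exporters such as ABCA1 and the receptor-degrading ligase MYLIP. SOAT enzymes store surplus cholesterol as esters, and hepatocytes also pass it to lipoproteins and bile.

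Most members were more abundant after TRIB3 knockdown, and the synthesis enzymes moved almost as a block. A member was counted as changed where limma's p, adjusted over all 11265 tested genes, was under 0.05. With shTRIB3-1, 25 of 33 members rose and 5 fell, beside 32.9% of all tested genes that rose and 41.5% that fell. With shTRIB3-2, 27 members rose and 4 fell, beside 35.4% and 40.5% of all tested genes. These shares amount to 75.8% of members rising with shTRIB3-1 and 81.8% with shTRIB3-2. The median log2 fold change of the members was 0.31 with shTRIB3-1 and 0.54 with shTRIB3-2, whereas that of all tested genes was -0.06 and -0.03.

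The changes were mostly below 2-fold. Past a 2-fold change with shTRIB3-1 were PMVK, SOAT2 and MYLIP among the members that rose, 9.09% of the members against 5.39% of all tested genes. INSIG2 alone fell past 2-fold with shTRIB3-1, 3.03% of the members against 6.10% of all tested genes. With shTRIB3-2 the members that rose past 2-fold were SC5D, NPC1, SOAT2 and ABCA1, 12.1% of members against a background of 6.06%, and INSIG2 again was the 1 that fell, against 6.27%. With a pseudocount of 1 in place of 0.1, 1 member rose past 2-fold with shTRIB3-1 and 2 did with shTRIB3-2.

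With both hairpins 24 members rose and 3 fell (INSIG2, NR1H3 and ABCG8), where 28.1% of all tested genes rose and 34.3% fell with both. Both comparisons share the shCtrl libraries, so they are not independent of each other. In 19 members, 57.6% of those tested, every shTRIB3-1 library lay above every shCtrl library and every shTRIB3-2 library above every shTRIB3-1 library. Among all tested genes 11.0% had that order. The plot of members by library shows these steps gene by gene.

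**Figure D1:**
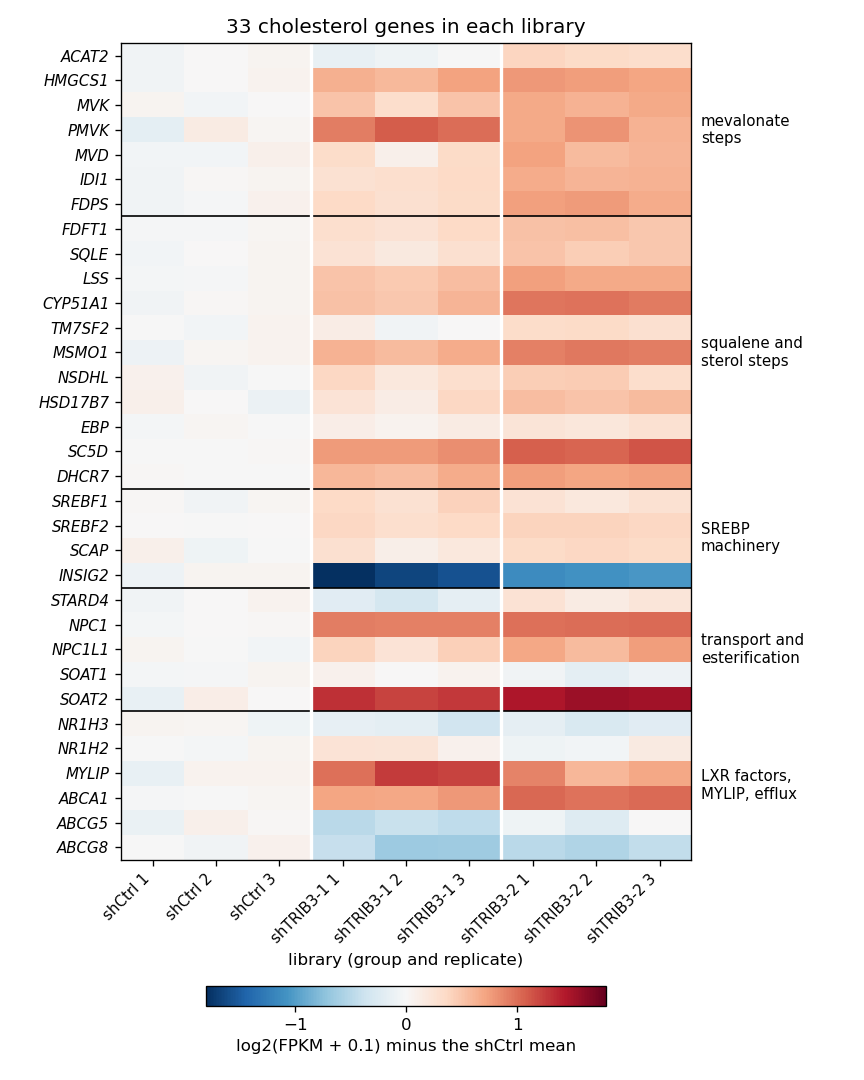
Colour gives log2(FPKM + 0.1) of each tested member (vertical axis, grouped by role) in each of the 9 libraries (horizontal axis) minus the mean of the 3 shCtrl libraries. Most enzymes turn red with shTRIB3-1 and deeper red with shTRIB3-2, except that ACAT2 (-0.07) and TM7SF2 (0.03) stay pale with shTRIB3-1 and PMVK is paler with shTRIB3-2 (0.71) than with shTRIB3-1 (1.01). INSIG2 is the darkest blue at -1.69 and -1.09, and SOAT2 is the darkest red at 1.26 and 1.51.

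The 18 synthesis enzymes supplied most of the rising members. With shTRIB3-1, 16 rose and 0 fell by limma, and 0 fell at an unadjusted p under 0.05 or by voom on whole fragments. Under 4 other alternatives 1 enzyme, ACAT2, passed as lower, as given with its values. With shTRIB3-2 all 18 rose. Of all tested genes 32.9% rose and 41.5% fell with shTRIB3-1, and 35.4% rose and 40.5% fell with shTRIB3-2. The median log2 fold change of the 18 enzymes was 0.32 with shTRIB3-1 and 0.65 with shTRIB3-2. The summed level of the 18 enzymes was 1150.2, 1189 and 1226 FPKM in shCtrl, 1543, 1488 and 1596 FPKM with shTRIB3-1 and 1887, 1873 and 1845 FPKM with shTRIB3-2. On this linear scale the sum was 1.30 times the shCtrl mean with shTRIB3-1 and 1.57 times with shTRIB3-2, and no library of an arm reached into another arm. Leaving out CYP51A1 and EBP, whose exons share 68.2% and 36.4% of their bases with another gene on the same strand, gave ratios of 1.30 and 1.56.

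The mevalonate steps begin with ACAT2, the cytosolic thiolase, and HMGCS1, the synthase that condenses its product with acetyl-CoA. ACAT2 was among the most abundant members at 149.8 ± 6.20 FPKM (SD, n = 3) in shCtrl. It stood at 143 ± 6.33 FPKM with shTRIB3-1, a difference of -0.07 on the log2 scale that did not pass (95% confidence interval -0.16 to 0.02, adjusted p = 0.132), and rose to 191 ± 4.45 FPKM with shTRIB3-2 (0.35, adjusted p = 5.56e-06). With shTRIB3-1 the ACAT2 value passed as lower after quantile normalization (-0.12, adjusted p = 0.0143), after rescaling to TPM (-0.12, adjusted p = 0.0186) and without shCtrl replicate 1 or shTRIB3-1 replicate 3 (both -0.10, adjusted p = 0.0372 and 0.0418). ACAT2 thus separated the hairpins more than HMGCS1 did. HMGCS1 rose from 73.9 ± 3.25 FPKM to 116 ± 5.92 and 124 ± 2.67 FPKM, log2 fold changes of 0.65 and 0.75, and the 0.09 between the hairpins did not pass (interval 0.00 to 0.18, adjusted p = 0.0936). On the opposite strand, other genes overlap 22.2% of the exon bases of ACAT2 and 37.7% of those of HMGCS1, and the same holds for 18.6% of FDPS and 15.0% of IDI1. The study's methods describe strand-specific libraries, while the labels name a different library kit. Whether the authors' counting used strand is not given in the sources used here.

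PMVK, phosphomevalonate kinase (chr1:154924740-154936719, minus strand), showed the largest rise of any enzyme with shTRIB3-1. Its levels were 12.0, 15.0 and 13.9 FPKM in shCtrl, 25.8, 29.0 and 27.3 FPKM with shTRIB3-1 and 21.8, 23.8 and 21.1 FPKM with shTRIB3-2. The arms did not overlap, and the middle arm here was shTRIB3-2. PMVK rose by 1.01 (SE 0.076, adjusted p = 1.40e-07) with shTRIB3-1 and by 0.71 (adjusted p = 3.16e-06) with shTRIB3-2. It was the 1 enzyme that was lower with shTRIB3-2 than with shTRIB3-1, by a log2 difference of -0.30 (SE 0.076, adjusted p = 0.00694). MVK, the kinase that acts just before it, rose by 0.45 and 0.66 from 12.3 ± 0.415 FPKM.

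The later mevalonate enzymes followed the common order. MVD, the decarboxylase that yields isopentenyl diphosphate, rose by 0.26 and 0.63. IDI1, which isomerises isopentenyl diphosphate, rose by 0.31 and 0.64, and FDPS, which builds farnesyl diphosphate, by 0.33 and 0.72. FDPS was the most abundant of these enzymes, at 142 ± 7.24 FPKM in shCtrl, 178 ± 4.91 FPKM with shTRIB3-1 and 234 ± 7.91 FPKM with shTRIB3-2. In all of MVD, IDI1 and FDPS the rise was larger with shTRIB3-2, with log2 differences of 0.37 (adjusted p = 7.60e-04), 0.32 (2.35e-05) and 0.39 (1.18e-05).

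The 11 enzymes from squalene to cholesterol moved alike. With shTRIB3-1 10 rose and with shTRIB3-2 11, beside 32.9% and 35.4% of all tested genes. FDFT1, squalene synthase, rose by 0.31 and 0.52, and SQLE, squalene epoxidase, by 0.24 and 0.48. LSS, which closes the sterol rings to lanosterol, rose by 0.51 and 0.70. All 3 were higher with shTRIB3-2 than with shTRIB3-1, by between 0.19 and 0.24 on the log2 scale.

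Removal of the methyl groups of lanosterol involves CYP51A1, TM7SF2, MSMO1, NSDHL and HSD17B7. CYP51A1, the 14-alpha-demethylase, rose by 0.54 and by 0.96, and MSMO1, the C4 oxidase, by 0.62 and by 0.92. They reached 205 ± 2.71 and 263 ± 3.45 FPKM with shTRIB3-2, from 106 ± 4.44 and 139 ± 7.30 FPKM in shCtrl. The reads of CYP51A1 cannot be fully separated from those of an overlapping gene on its strand. NSDHL rose by 0.29 and 0.41, and HSD17B7 by 0.25 and 0.54. TM7SF2, a sterol C14 reductase, was the other enzyme without a change with shTRIB3-1 (0.03, interval -0.08 to 0.13, adjusted p = 0.606), and its libraries overlapped those of shCtrl. TM7SF2 rose by 0.32 (adjusted p = 5.79e-05) with shTRIB3-2.

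The final steps are run by EBP, SC5D and DHCR7. SC5D, the C5 desaturase (chr11:121292681-121313410, plus strand), had the largest rise of the enzymes with shTRIB3-2. It was 21.0, 21.0 and 21.6 FPKM in shCtrl, 36.1, 36.1 and 38.1 FPKM with shTRIB3-1 and 44.8, 43.8 and 46.7 FPKM with shTRIB3-2. The 3 arms formed separate steps with little spread. SC5D rose by 0.79 (SE 0.036, adjusted p = 1.35e-09) and by 1.08 (SE 0.036, adjusted p = 6.83e-11), and the hairpins differed by 0.29 (adjusted p = 4.13e-05). DHCR7, which reduces 7-dehydrocholesterol to cholesterol, rose by 0.60 and 0.73. EBP, the sterol isomerase, moved least of the 3, by 0.11 and 0.24, and its rise with shTRIB3-1 did not pass after rescaling to TPM (0.06, adjusted p = 0.202). A stretch of 30 bases at -71 to -42 from the RefSeq start of SC5D, which lies further downstream than the GENCODE start given above, is shown because it holds the CCAAT box that many of these enzymes share, in capitals as read on the opposite strand (RefSeq, GRCh38.p14, plus strand, chr11:121292700-121292729).
SC5D: tggcgccggtcgctgATTGGctggccgctc

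CCAAT boxes are bound by NF-Y, a factor known to work beside SREBP at sterol genes. RefSeq promoters of 300 bases, 250 before and 50 after the start, were searched on both strands for 4 motifs. They were given for 29 of the 33 tested members and for 15 of the enzymes. FDFT1, SQLE, ACAT2, SOAT2 and ABCG1 had no entry. CCAAT was present in 12 of 15 enzyme promoters (80.0%), in 17 of 29 member promoters (58.6%), in 37.0% of 9088 promoters of tested genes and in 35.7% of all 27305 promoters. Of the members that rose with both hairpins 14 of 21 held it (66.7%), and 3 of the remaining 8 did (37.5%). Among those 14, all but SREBF2, NPC1L1 and MYLIP were synthesis enzymes. Rising and being an enzyme therefore cannot be told apart in this contrast. The enzymes without a CCAAT box were PMVK, IDI1 and CYP51A1. Of the 15 enzymes with a promoter, TM7SF2 was the only one that did not rise with both hairpins, so no comparison of rising with other enzymes could be made.

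The GC box GGGCGG, a site for Sp1, was present in 14 of 15 enzyme promoters (93.3%) and in 70.7% of promoters of tested genes. The study is concerned with G-quadruplexes, so a pattern of 4 runs of at least 3 G with loops of 1 to 7 bases was also searched, and its G runs can overlap a GC box. It was present in 5 of 15 enzyme promoters (33.3%), in 11 of 29 member promoters (37.9%) and in 33.7% of promoters of tested genes. Of members that rose with both hairpins 8 of 21 held the pattern (38.1%), as did 3 of the other 8 (37.5%). The core of the sterol regulatory element, TCACNCCAC, was found in SREBF2 and in no other member promoter, beside 1.10% of promoters of tested genes. These matches describe the letters in a window and are not binding sites.

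The SREBP machinery split into 3 genes that rose and INSIG2, which fell. SREBF2 encodes SREBP-2, the main activator of cholesterol synthesis (chr22:41833105-41907306, plus strand). Its levels were 39.7, 39.2 and 39.7 FPKM in shCtrl, 51.5, 48.8 and 50.8 FPKM with shTRIB3-1 and 52.0, 52.4 and 51.5 FPKM with shTRIB3-2. Every knockdown library lay above every control, and the hairpins were close to each other. SREBF2 rose by 0.35 (SE 0.029, adjusted p = 3.90e-07) and by 0.39 (SE 0.029, adjusted p = 1.12e-07). The difference between hairpins was 0.04 (interval -0.02 to 0.11, adjusted p = 0.234).

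SREBF1 encodes SREBP-1, which favours fatty acid synthesis (chr17:17810399-17837002, minus strand). It was 14.1, 13.3 and 14.2 FPKM in shCtrl, 17.7, 16.8 and 18.5 FPKM with shTRIB3-1 and 16.6, 15.9 and 16.8 FPKM with shTRIB3-2. SREBF1 rose by 0.35 (SE 0.046, adjusted p = 1.92e-05) and by 0.25 (adjusted p = 3.55e-04), with no overlap of either arm with shCtrl. The hairpin arms overlapped each other, and their difference of -0.10 did not pass (interval -0.20 to -0.01, adjusted p = 0.0805). The table sums the isoforms of SREBF1, so SREBP-1a and SREBP-1c were not told apart. SCAP, the sterol-sensing escort of the SREBPs (chr3:47413681-47477126, minus strand), was 22.6, 20.1 and 21.1 FPKM in shCtrl, 25.9, 22.8 and 24.1 FPKM with shTRIB3-1 and 27.0, 27.5 and 27.0 FPKM with shTRIB3-2. It rose by 0.19 (SE 0.052, adjusted p = 0.00540) and by 0.35 (SE 0.052, adjusted p = 5.07e-05), and the lowest shTRIB3-1 library stood just above the highest control.

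INSIG2, which retains SCAP in the endoplasmic reticulum when sterols are high (chr2:118088452-118110997, plus strand), showed the largest fall of any member. It was 33.3, 36.6 and 36.6 FPKM in shCtrl, 9.76, 11.2 and 11.9 FPKM with shTRIB3-1 and 16.1, 16.7 and 17.0 FPKM with shTRIB3-2. All 6 knockdown libraries lay at or below 17.0 FPKM and all 3 controls at or above 33.3 FPKM. INSIG2 fell by 1.69 on the log2 scale (SE 0.065, adjusted p = 3.22e-10) with shTRIB3-1 and by 1.09 (SE 0.065, adjusted p = 1.30e-08) with shTRIB3-2, to 0.31 and 0.47 times the control mean. The fall was larger with shTRIB3-1, the hairpin with the weaker knockdown, and the arms differed by 0.60 (SE 0.065, adjusted p = 1.64e-05). That order is the reverse of the order of TRIB3 depletion, unlike that of most enzymes. Depth of knockdown and the hairpin used vary together here, so their effects cannot be told apart. Under all 16 alternative settings the call and direction of INSIG2 were kept in each comparison.

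The promoters of SREBF2 and INSIG2 are shown because the genes moved in opposite directions. The SREBF2 stretch runs from 140 bases before the start to the base before it (chr22:41832965-41833104, plus strand), and capitals mark the sterol regulatory element core at -133 to -125 and a CCAAT box on the opposite strand at -106 to -102. The INSIG2 stretch of 121 bases runs from -140 to -20 from its RefSeq start and ends just before the GENCODE start (chr2:118088331-118088451, plus strand) and holds neither motif. Both are RefSeq sequences of GRCh38.p14.
SREBF2: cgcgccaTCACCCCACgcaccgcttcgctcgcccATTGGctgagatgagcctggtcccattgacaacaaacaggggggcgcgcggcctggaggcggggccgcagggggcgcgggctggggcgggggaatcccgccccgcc
INSIG2: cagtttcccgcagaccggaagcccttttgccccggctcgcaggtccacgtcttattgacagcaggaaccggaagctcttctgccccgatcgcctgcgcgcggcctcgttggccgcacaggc
The SREBF2 stretch lies within an exon of the noncoding gene SREBF2-AS1 in GENCODE.

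Among genes of sterol transport and storage, NPC1 and SOAT2 rose most. NPC1 moves cholesterol out of late endosomes and lysosomes (chr18:23506184-23586506, minus strand). It was 16.5, 17.0 and 17.2 FPKM in shCtrl, 32.2, 31.7 and 31.7 FPKM with shTRIB3-1 and 33.7, 34.1 and 34.4 FPKM with shTRIB3-2. The knockdown libraries were tightly grouped far above the controls. NPC1 rose by 0.91 (SE 0.031, adjusted p = 1.33e-10) and by 1.00 (SE 0.031, adjusted p = 4.38e-11), the latter at the 2-fold line itself. Its 0.09 between hairpins passed (adjusted p = 0.0263) but did not pass after median-centring (0.07, adjusted p = 0.145) or quantile normalization (0.07, adjusted p = 0.0750), or without any of shTRIB3-1 replicate 2 or 3 or shTRIB3-2 replicate 2 or 3 (adjusted p = 0.0679, 0.0759, 0.0526 and 0.0800).

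SOAT1 and SOAT2 both esterify cholesterol, SOAT1 in most tissues and SOAT2 mainly in liver and intestine. SOAT2 (chr12:53103486-53124535, plus strand) was 8.78, 10.6 and 9.75 FPKM in shCtrl, 24.2, 22.5 and 23.4 FPKM with shTRIB3-1 and 26.8, 28.4 and 27.8 FPKM with shTRIB3-2. SOAT1 (chr1:179293714-179358680, plus strand) was 9.52, 9.60 and 10.1 FPKM in shCtrl, 10.2, 9.75 and 10.2 FPKM with shTRIB3-1 and 9.33, 8.58 and 9.10 FPKM with shTRIB3-2. The paralogs thus stood at like levels per length in shCtrl and far apart after knockdown. SOAT2 rose by 1.26 (SE 0.059, adjusted p = 1.72e-09) and by 1.51 (SE 0.059, adjusted p = 2.94e-10), the largest rise of any member, to 2.41 and 2.85 times the control mean. SOAT1 differed by 0.04 with shTRIB3-1 (interval -0.06 to 0.15, adjusted p = 0.401) and by -0.11 with shTRIB3-2 (interval -0.21 to -0.01, adjusted p = 0.0447). The latter call of SOAT1 was lost under 9 of the 16 alternatives, among them leaving out shCtrl replicate 2 or 3, shTRIB3-1 replicate 1 or 3, or shTRIB3-2 replicate 2 or 3, with adjusted p from 0.0539 to 0.161 in those 6.

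NPC1L1, the sterol importer that is the target of ezetimibe, rose from 12.5 ± 0.447 FPKM to 16.1 ± 1.10 and 20.1 ± 1.25 FPKM, by 0.35 and 0.67 on the log2 scale. STARD4, a cytosolic sterol carrier that is itself an SREBP-2 target, moved in opposite directions. It was 9.57 ± 0.428 FPKM in shCtrl, 8.15 ± 0.470 FPKM with shTRIB3-1 and 11.1 ± 0.446 FPKM with shTRIB3-2, and no libraries of different arms overlapped. STARD4 fell by 0.23 (adjusted p = 0.00235) with shTRIB3-1 and rose by 0.21 (adjusted p = 0.00440) with shTRIB3-2. The difference of 0.44 between the hairpins passed (SE 0.055, adjusted p = 5.54e-05).

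**Figure D2:**
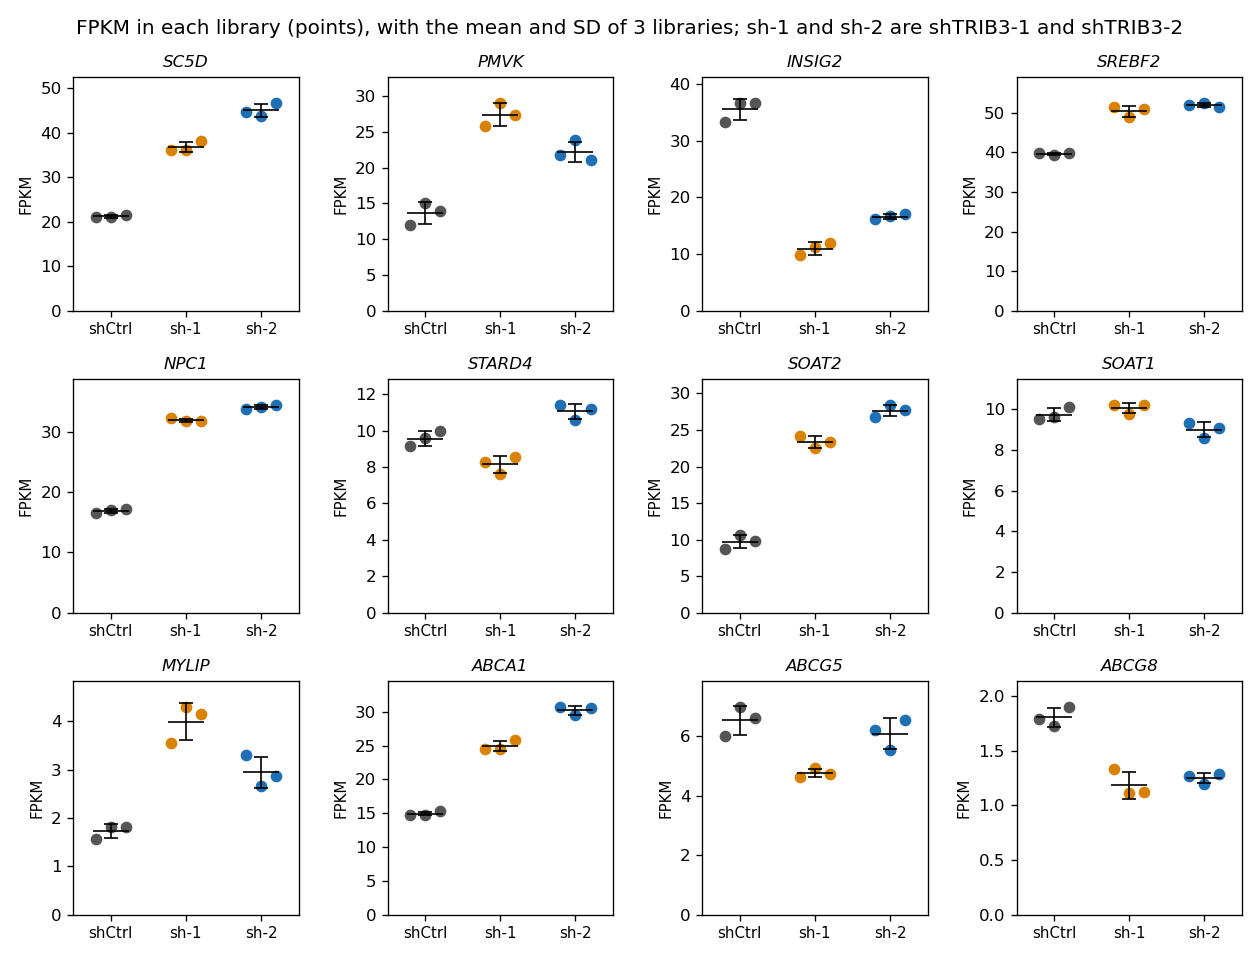
FPKM (vertical axis, linear from 0) of 12 members in each library, by arm (horizontal axis, sh-1 is shTRIB3-1 and sh-2 is shTRIB3-2). Points are libraries and black bars the mean with the SD of 3. INSIG2 drops to 10.9 and 16.6 FPKM from 35.5, SOAT2 climbs to 23.4 and 27.7 FPKM from 9.70 while SOAT1 stays between 8.58 and 10.2, and STARD4 lies below the control with shTRIB3-1 and above it with shTRIB3-2.

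The LXR factors themselves moved little. NR1H3, or LXR alpha (chr11:47248300-47269033, plus strand), was 6.76, 6.65 and 6.16 FPKM in shCtrl, 5.89, 5.78 and 5.13 FPKM with shTRIB3-1 and 5.82, 5.36 and 5.66 FPKM with shTRIB3-2. It fell by 0.22 (SE 0.065, adjusted p = 0.00901) and by 0.21 (SE 0.065, adjusted p = 0.00991), and all knockdown libraries lay below the controls. The call with shTRIB3-1 did not hold after median-centring (-0.14, adjusted p = 0.0612). NR1H2, or LXR beta (chr19:50329653-50383388, plus strand), was 7.08, 6.98 and 7.38 FPKM in shCtrl, 8.49, 8.41 and 7.53 FPKM with shTRIB3-1 and 6.74, 6.93 and 8.03 FPKM with shTRIB3-2. Its libraries with shTRIB3-2 lay on both sides of the controls. NR1H2 rose by 0.18 with shTRIB3-1 (SE 0.070, adjusted p = 0.0309), a call lost without shCtrl replicate 1 or 2 or without shTRIB3-1 replicate 1 or 2 (adjusted p from 0.0669 to 0.104), with no filter (0.0722) and after rescaling to TPM (0.13, adjusted p = 0.127), and differed by 0.01 with shTRIB3-2 (interval -0.14 to 0.17, adjusted p = 0.867). Another gene on the opposite strand overlaps 22.1% of the exon bases of NR1H2.

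MYLIP, an LXR-induced ubiquitin ligase that marks lipoprotein receptors such as VLDLR for degradation (chr6:16129086-16148248, plus strand), rose with both hairpins. It was 1.57, 1.82 and 1.82 FPKM in shCtrl, 3.55, 4.29 and 4.14 FPKM with shTRIB3-1 and 3.30, 2.67 and 2.87 FPKM with shTRIB3-2. These values rest on 181 to 472 fragments per library, and 181 was the lowest count of any tested member. MYLIP rose by 1.15 (SE 0.101, adjusted p = 5.16e-07) and by 0.73 (SE 0.101, adjusted p = 2.91e-05). Like PMVK it was lower with shTRIB3-2 than with shTRIB3-1, by a log2 difference of -0.42 (adjusted p = 0.00460), and the arms did not overlap. Its promoter is shown because it carries a pair of CCAAT boxes on the opposite strand, in capitals, without being a synthesis gene (RefSeq, GRCh38.p14, 140 bases before the start, chr6:16128946-16129085, plus strand).
MYLIP: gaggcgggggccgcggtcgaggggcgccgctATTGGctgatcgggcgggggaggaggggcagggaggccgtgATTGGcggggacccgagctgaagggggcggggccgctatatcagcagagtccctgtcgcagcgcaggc

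The sterol exporters moved in different directions. ABCA1, which loads cholesterol onto apolipoprotein A-I at the cell surface (chr9:104781006-104928155, minus strand), was 14.8, 14.8 and 15.3 FPKM in shCtrl, 24.5, 24.5 and 25.8 FPKM with shTRIB3-1 and 30.7, 29.5 and 30.6 FPKM with shTRIB3-2. ABCA1 rose by 0.73 (SE 0.036, adjusted p = 2.76e-09) and by 1.01 (SE 0.036, adjusted p = 1.26e-10), and the 0.28 between hairpins passed (adjusted p = 6.28e-05). Its arms stood in the same order as those of most synthesis enzymes. ABCG1 had 0 fragments in every shCtrl library, 7, 4 and 3 with shTRIB3-1 and 0, 1 and 0 with shTRIB3-2, too few for a test or a fold change.

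ABCG5 and ABCG8 form the heterodimer that exports sterols into bile, and their RefSeq starts lie head to head with 131 bases between them. ABCG5 (chr2:43812472-43838865, minus strand) was 6.02, 6.98 and 6.60 FPKM in shCtrl, 4.64, 4.92 and 4.72 FPKM with shTRIB3-1 and 6.20, 5.53 and 6.55 FPKM with shTRIB3-2. ABCG8 (chr2:43831942-43882988, plus strand) was 1.79, 1.73 and 1.90 FPKM in shCtrl, 1.33, 1.11 and 1.12 FPKM with shTRIB3-1 and 1.27, 1.20 and 1.29 FPKM with shTRIB3-2. Both were below all controls with shTRIB3-1, and with shTRIB3-2 ABCG8 was while ABCG5 overlapped the controls. ABCG5 fell by 0.45 (SE 0.072, adjusted p = 1.19e-04) with shTRIB3-1, and its difference of -0.10 with shTRIB3-2 did not pass (interval -0.26 to 0.06, adjusted p = 0.228). ABCG8 fell by 0.57 (SE 0.101, adjusted p = 2.60e-04) and by 0.49 (SE 0.101, adjusted p = 7.88e-04). The GENCODE spans given above overlap each other, with that of ABCG8 starting upstream of its RefSeq start. The shared stretch between the RefSeq starts is shown on the strand of ABCG8 because both genes start at its ends in RefSeq (GRCh38.p14, chr2:43838840-43838970). It holds neither a CCAAT box nor the sterol element core, so it has no capitals.
ABCG8: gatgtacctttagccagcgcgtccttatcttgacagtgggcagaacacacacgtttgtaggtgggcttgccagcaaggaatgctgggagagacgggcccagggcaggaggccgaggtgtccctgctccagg

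The hairpins were then set against each other. With shTRIB3-2, 23 members were higher than with shTRIB3-1 and 3 were lower, beside 25.1% and 20.7% of all tested genes. The 3 lower members were PMVK, SOAT1 and MYLIP. Past 2-fold the count was 0 in both directions by limma on log2(FPKM + 0.1) and 0 by voom on whole fragments, and of all tested genes 0.284% were higher and 1.79% lower past that line. At an adjusted p under 0.05, 15 of the 18 enzymes were higher with shTRIB3-2, with a median difference of 0.27 over the 18, where all tested genes had a median of 0.03. The 7 members without a passing difference were HMGCS1, NSDHL, SREBF1, SREBF2, NR1H3, NR1H2 and ABCG8. Of these, 4 passed under some alternatives: SREBF1 under 5 of 16, HMGCS1 and NR1H2 under 4 each and NSDHL under 3. The largest differences were those of INSIG2 (0.60), STARD4 (0.44), ACAT2 (0.42), CYP51A1 (0.42) and MYLIP (-0.42), and the plot of fold changes shows them with their intervals.

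**Figure D3:**
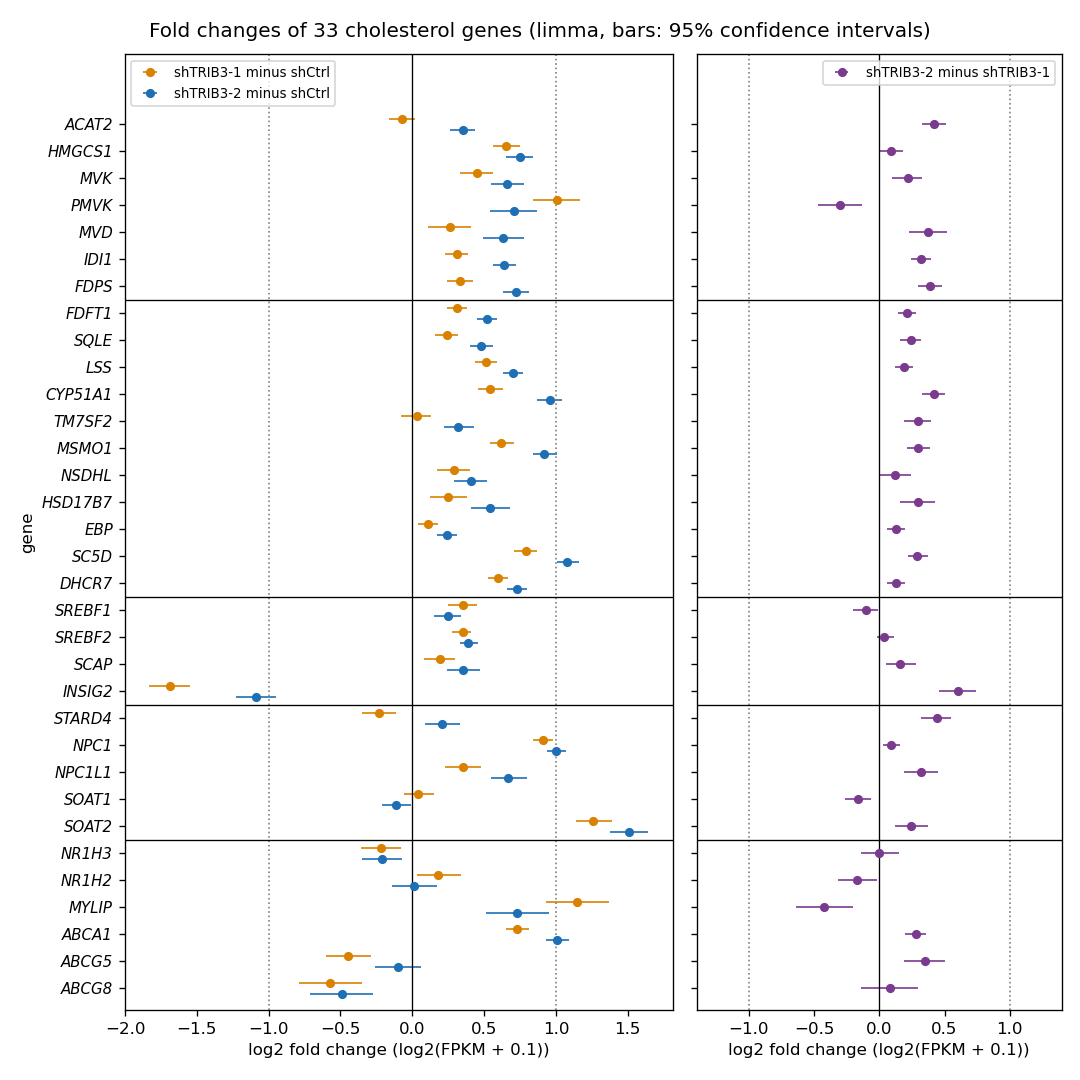
Log2 fold change on the log2(FPKM + 0.1) scale (horizontal axes) of the 33 tested members (vertical axis), for each hairpin against shCtrl on the left and for shTRIB3-2 against shTRIB3-1 on the right. Points are limma estimates, bars 95% confidence intervals and dotted lines a 2-fold change. All enzymes lie to the right of 0 with shTRIB3-2, from 0.24 for EBP to 1.08 for SC5D, while PMVK and MYLIP lie to the left in the right panel at -0.30 and -0.42.

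The spread between replicates was small beside most of these differences. The coefficient of variation of a member's FPKM over 3 libraries had a median of 4.19% in shCtrl, 4.47% with shTRIB3-1 and 2.40% with shTRIB3-2. Its highest values were 11.5% for PMVK in shCtrl, 10.6% for ABCG8 with shTRIB3-1 and 10.9% for MYLIP with shTRIB3-2.

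Of 60 further genes of sterol biology in 5 companion lists, 50 were tested, and they did not move as a block. With shTRIB3-1, 18 rose and 22 fell, and with shTRIB3-2, 20 rose and 16 fell. All tested genes had 32.9% higher and 41.5% lower with shTRIB3-1 and 35.4% and 40.5% with shTRIB3-2, so the companion counts with shTRIB3-1 are near the background. Their median log2 fold changes were -0.02 and 0.02. The companion genes named here were chosen as examples after their values were seen. After median-centring the counts with shTRIB3-1 were 24 and 17, so the balance of directions in that comparison rests on the scaling. Between the hairpins, 18 were higher and 5 lower with shTRIB3-2, beside 25.1% and 20.7% of all tested genes. After median-centring the counts were 12 and 6.

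Other enzymes use the same isoprenoid precursors for prenylation, dolichol and ubiquinone. Of 13 tested genes of this branch, 2 rose and 9 fell with shTRIB3-1, and 4 rose and 7 fell with shTRIB3-2, with medians of -0.28 and -0.23. More genes that fell than rose is also the pattern over all tested genes (41.5% and 40.5% lower, 32.9% and 35.4% higher). The medians over all tested genes were smaller falls, of -0.06 and -0.03. NUS1, a subunit of the enzyme that makes the dolichol precursor, fell by 0.60 with each hairpin, and COQ2, which attaches the tail of ubiquinone, fell by 0.33 and 0.66. FNTA, the shared subunit of the farnesyl and geranylgeranyl transferases, rose by 0.43 and 0.51. The upstream enzyme FDPS, whose product feeds both branches, rose by 0.33 and 0.72.

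Among 13 genes of lipoprotein uptake and lysosomal release, 7 rose and 3 fell with shTRIB3-1, and 7 rose and 2 fell with shTRIB3-2. The shares over all tested genes were 32.9% and 35.4% higher and 41.5% and 40.5% lower. NPC2, the soluble partner of NPC1, rose by 0.53 and 0.51, and LIPA, the lysosomal acid lipase that frees cholesterol from esters, by 0.40 and 0.71. SCARB2, a lysosomal membrane protein, rose by 0.68 and 0.76. PLTP, which transfers phospholipids between lipoproteins, rose by 0.62 and by 1.01, and no other tested companion gene passed 2-fold with either hairpin. Among companion genes below the filter, which were not tested, STARD5 stood at 0.38 and 0.36 times the shCtrl mean (29 to 119 fragments per library). TTC39B stood at 0.45 and 0.55 times (92 to 278 fragments), and RXRG at 6.28 and 2.07 times on 0 to 4 fragments. LRP1, an endocytic receptor, fell by 0.39 and 0.18.

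Of 11 genes for SREBP proteases and degradation in the endoplasmic reticulum, 6 rose and 3 fell with shTRIB3-1 and 5 rose and 2 fell with shTRIB3-2. For this list and the short ones that follow, the background is again 32.9% and 35.4% higher and 41.5% and 40.5% lower. MBTPS1, the protease that makes the opening cut in SREBP, fell by 0.19 and 0.22. RNF145, a ubiquitin ligase that takes part in sterol-dependent degradation, rose by 0.64 and 0.62. Among 8 genes of cytosolic sterol transfer, 2 rose and 4 fell with shTRIB3-1, and 3 rose and 2 fell with shTRIB3-2. Of 5 oxysterol enzymes and LXR partners, 1 rose and 3 fell with each hairpin. The riser was NCEH1, a cholesteryl ester hydrolase (0.52 and 0.65), and among those that fell was LPCAT3, an LXR target that remodels phospholipids (-0.56 and -0.50).

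**Figure D4:**
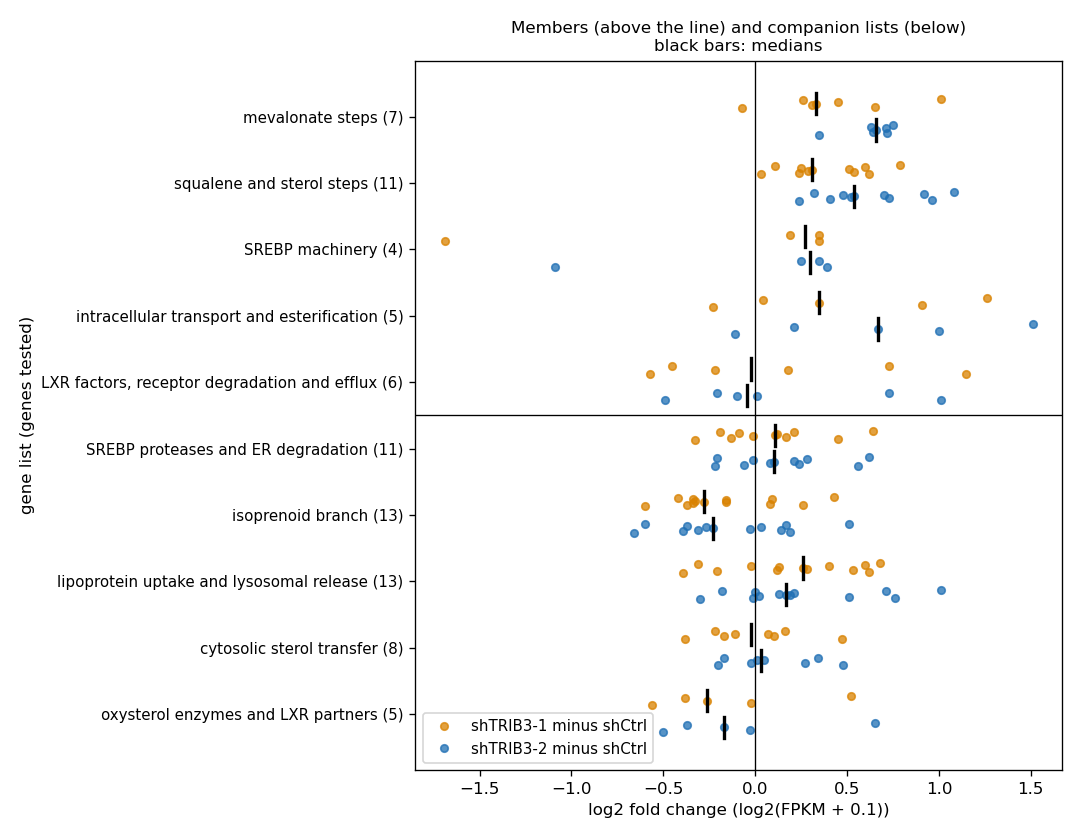
Log2 fold change on the log2(FPKM + 0.1) scale (horizontal axis) of each tested gene against shCtrl, by list (vertical axis, with the number of genes tested). The 5 lists above the line hold the members and the 5 below the companion genes, points are genes, and black bars are medians. The enzyme lists have medians from 0.31 to 0.66 and the isoprenoid branch -0.28 and -0.23.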

How the data were processed

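HepG2 cells carrying a control hairpin or 1 of 2 hairpins against TRIB3 were profiled by RNA-seq, with 3 libraries per group assigned by their labels. The deposited values were FPKM, computed by the authors per gene symbol and library. The study's methods name STAR for alignment to GRCh38 and DESeq2 for testing, and the submitters' processing notes name HTSeq and R 3.2.0 without a role. The annotation release and the strand setting of the counting are not given in the sources used here. The methods describe strand-specific libraries, but methods and labels name different library kits. A shift in a few abundant genes moves every other FPKM of that library.

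Whole fragments were recovered from the FPKM values by solving for each gene's length and each library's total. All values of tested genes came within 0.02 of a whole number (100%), giving 34206726 to 36311029 fragments per library. The main test was limma 3.58.1 in R 4.3.3 on log2(FPKM + 0.1), on genes with at least 1 FPKM in at least 3 of 9 libraries, with group means, an empirical Bayes trend and Benjamini-Hochberg adjustment over 11265 genes. Because of the pseudocount, changes of genes at low levels come out too small. On simulated data with known answers for shTRIB3-1 against shCtrl, the recovery of totals and the test were checked. Gene positions came from GENCODE release 44 and promoters from RefSeq (GRCh38.p14), both matched by symbol. Figures were drawn with matplotlib 3.10.9.

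Alternatives were a pseudocount of 1, no filter, median-centring, quantile normalization, rescaling to TPM, a replicate block, voom on whole fragments and leaving out each library. Replicates of a group differed by more than sampling noise (chi-square per degree of freedom 3.13 to 7.54), so none were merged, and no batch is given in the labels. Levels in each library were printed for members past 2-fold in any comparison, for 5 partner pairs and for SCAP, and companion genes were to be named where past 2-fold with both hairpins. The members, the companion and marker lists and the motifs were chosen with earlier results of these data known.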

Additional observations from a re-analysis of the deposited data

Results flagged for a closer look

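The log2 fold changes of the hairpins against shCtrl had opposite signs for 3 members, and the difference between hairpins passed in each (limma, adjusted over all tested genes). Only STARD4 passed against shCtrl with both hairpins. STARD4, the sterol carrier, fell by 0.23 with shTRIB3-1 and rose by 0.21 with shTRIB3-2, a difference of 0.44 (adjusted p = 5.54e-05), with no overlap between arms. ACAT2, the thiolase at the head of the pathway, was at -0.07 with shTRIB3-1, which did not pass, and rose by 0.35 with shTRIB3-2, a difference of 0.42 (adjusted p = 6.16e-06). SOAT1, the widely expressed paralog of SOAT2, was at 0.04 with shTRIB3-1, which did not pass (adjusted p = 0.401). With shTRIB3-2 it was at -0.11, a call lost under 9 of the 16 alternatives. The difference between hairpins was -0.16 (adjusted p = 0.0162). That of SOAT1 did not pass after rescaling to TPM (-0.13, adjusted p = 0.0825) or without shTRIB3-1 replicate 1 or 3 or shTRIB3-2 replicate 2 (adjusted p = 0.0543, 0.0522 and 0.0548).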

How the results depend on the processing

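Of 99 member values (33 members in 3 comparisons), 83 kept their direction and their side of the threshold under all 16 alternatives. Of 320 member and companion counts under alternatives, 314 stayed within 1.5 times. With a pseudocount of 1, 1 member rose past 2-fold with shTRIB3-1 in place of 3 and 2 with shTRIB3-2 in place of 4, and rescaling to TPM also left 2 with shTRIB3-2. Members lower with shTRIB3-2 than with shTRIB3-1 numbered 5 in place of 3 after median-centring and 5 after quantile normalization, and companion genes lower in that comparison numbered 3 in place of 5 after rescaling to TPM. Values near 0 changed sign: with shTRIB3-1, TM7SF2 (-0.03) and SOAT1 (-0.01) after rescaling to TPM and ACAT2 (0.01) after median-centring, with shTRIB3-2, NR1H2 (-0.01) after rescaling to TPM, and between hairpins, NR1H3 after median-centring (-0.02) and quantile normalization (-0.01). Leaving out a library gave TM7SF2 with shTRIB3-1 values from -0.03 to 0.07, NR1H3 between hairpins from -0.06 to 0.04 and NR1H2 with shTRIB3-2 from -0.06 to 0.06. The cause of these shifts was not tested. Median-centring moved all log2 fold changes of shTRIB3-1 up by 0.08. Same-numbered libraries of different arms had correlations of deviations from -0.07 to 0.09, and different-numbered ones from -0.08 to 0.05. Values this small show no clear pairing by replicate number but cannot exclude it. With the replicate block, members higher and lower numbered 25 and 5 with shTRIB3-1, 27 and 4 with shTRIB3-2 and 23 and 4 between hairpins, where SREBF1 passed as lower (-0.10, adjusted p = 0.0311). Depth limits MYLIP, ABCG8 and ABCG1 most, and intervals cover the spread between libraries only.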
